A study of Homo sapiens with 9 samples.

Results

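The 3 libraries titled MS172 are compared here with the 3 titled DMSO, 6 of the 9 libraries sequenced, across all expressed genes. Of 56865 genes summed from the deposited values, 13914 had enough reads to be tested. All libraries are labelled as BxPC3, a human pancreatic adenocarcinoma cell line with the genotype label p53Y220C/-, grown in RPMI with serum, and the DMSO group received vehicle alone. The dose and time in the treatment protocol, 5 µM and 6 h, are stated there for compounds named PK9328 and MS78, and whether they hold for MS172 is not given. The other 3 libraries were treated with PK9328, known as a small molecule that binds the Y220C mutant of p53. They enter here only for comparison, directly with MS172 or against the same DMSO libraries, and as part of the estimate of spread. Nothing in the labels ties the replicates to separate cultures. The p-values therefore measure only how much these libraries vary, which may be technical.

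The level of an mRNA reflects how fast it is made and how fast it is degraded. Short-lived mRNAs, many with AU-rich elements in the 3' untranslated region, follow a change in transcription within hours, whereas mRNAs of metabolism, translation and the cytoskeleton are mostly stable. Noncoding RNAs and unproductively spliced isoforms are often turned over quickly, and 1 gene can make isoforms that differ in start site, exons or end. Poly(A)-selected libraries see all of these as a share of the sequenced RNA, so a total loss or gain of RNA per cell is not visible in them.

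The libraries held between 24077353 and 28031886 estimated reads. Of 12 ductal and epithelial markers 6, among them EPCAM, CDH1 and KRT7, lay under 1 CPM (counts scaled to library size, not to length) in every library, whereas KRT8 and KRT18 stood at 732 and 785 CPM with DMSO. Of 8 mesenchymal markers, VIM and COL1A2 stood at 9390 and 2420 CPM, and CDH2 and FN1 lay under 1 CPM in every library. All 6 acinar and endocrine, all 3 endothelial and 3 of 4 leukocyte markers lay under 1 CPM in every library. The epithelial list was thus split: EPCAM, CDH1 and KRT7 were near 0, while KRT19, CLDN4, ELF3 and MUC1 stood at 311, 122, 10.6 and 3.77 CPM with DMSO. The cell line is named here only as the label gives it.

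With MS172 many abundant, short mRNAs rose slightly and many scarce, long ones fell, most by less than 1.5-fold. By edgeR's quasi-likelihood test 2486 genes rose (17.9% of those tested) and 2398 fell (17.2%) at a Benjamini-Hochberg adjusted p under 0.05, and these calls are what "rose" and "fell" refer to. The median size of a called change was 0.26 on the log2 scale. The larger changes were mostly falls: 148 genes rose and 564 fell by over 1.5-fold, and 49 rose and 174 fell by over 2-fold. Of the 174 genes that fell by over 2-fold 86 were coding and 88 were not, and of the 86 coding genes 19 belonged to the ZNF, ZSCAN or NBPF families. Of all 4884 called genes the MS172 and DMSO libraries did not overlap for 4600, and they did not overlap for 44.7% of all tested genes. Genes named below as the largest changes of their biotype were taken only from those without overlap, so their separation follows from the choice.

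Abundance separated the rises from the falls. The median level was 77.1 CPM for genes that rose and 16.8 CPM for genes that fell. In the lowest quintile of mean log2 CPM (median 0.832 CPM) 41 genes rose and 276 fell of 2783, in the middle quintile 302 rose and 657 fell of 2782, and in the highest quintile (median 138 CPM) 1301 rose and 255 fell of 2783. The median log2 fold change went from -0.18 through -0.14, -0.05 and 0.02 to 0.10 over the 5 quintiles. With PK9328 against the same DMSO libraries the medians were 0.04 in the lowest and -0.05 in the highest quintile, and tested directly against PK9328 1646 of the 2783 most abundant genes were higher with MS172 and 302 lower, where 23.3% and 24.4% of all tested genes were higher and lower.

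Transcript length ordered the calls in the same sense. Length was taken per gene as the mean over its transcripts, weighted by their reads. Genes of the shortest quintile, up to 1492 bases, rose in 708 and fell in 192 of 2783 cases. Those of the longest quintile, from 4626 bases, rose in 278 and fell in 732 of 2783. Within the most abundant quintile of coding genes the contrast remained: of the 531 with the shortest transcripts 380 rose and 4 fell, and of the 516 with the longest 109 rose and 126 fell. Among coding genes of the next to lowest abundance quintile, 24 rose and 40 fell of the 330 with the shortest transcripts, and 17 rose and 162 fell of the 505 with the longest. The shortest length quintile held 58.5% to 60.1% of the TPM (a level scaled to length and library size) in the DMSO libraries and 60.5% to 61.6% in the MS172 libraries (exact permutation p = 0.1, two-sided, the smallest that 3 against 3 allow). Fragment length, read as transcript length minus effective length, overlapped between the groups, at 281.2 to 289.1 bases with DMSO and 274.1 to 292.8 with MS172. It was shorter with PK9328, at 249.5 to 263.0, without overlap, and its part in the direct comparisons with PK9328 was not tested. When the trends of each library with GC and length were removed by an offset, the medians of the shortest and longest quintiles moved from 0.09 to 0.02 and from -0.08 to -0.03, which the offset does by construction, and those of the abundance quintiles stayed between -0.19 and 0.09.

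**Figure D1:**
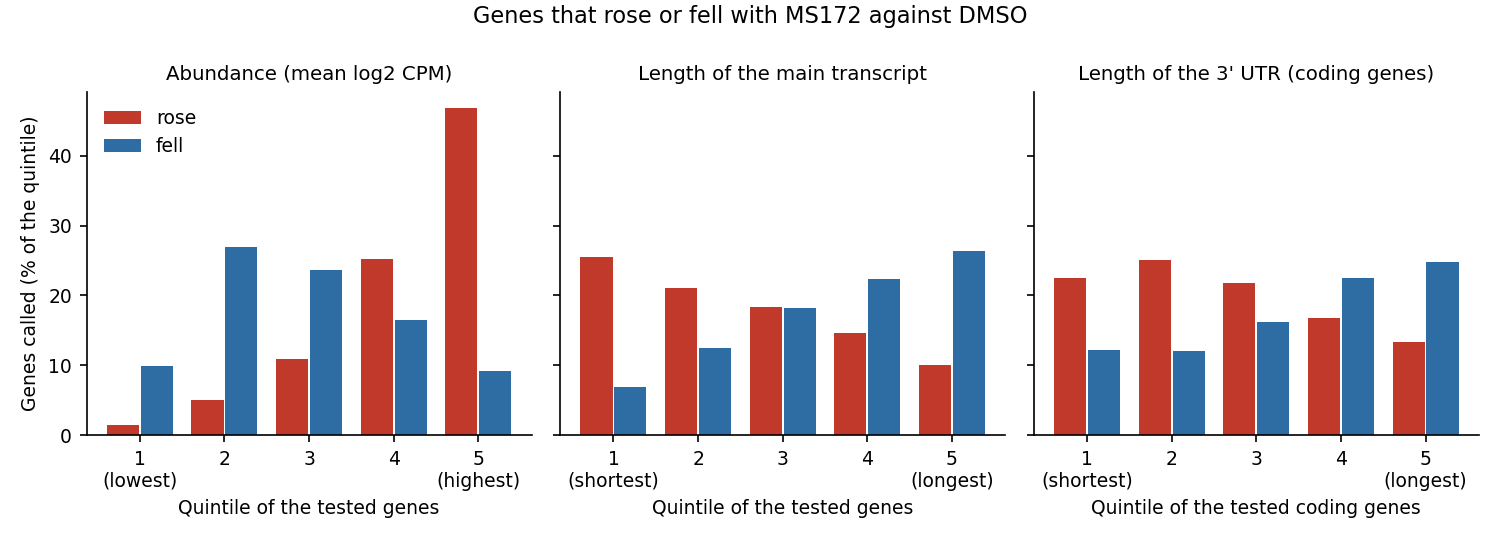
Percent of genes that rose (red) or fell (blue) with MS172 against DMSO by edgeR (y axis) in quintiles (x axis) of mean abundance, of transcript length and, for coding genes, of the length of the 3' untranslated region. Transcript length is the mean over a gene's transcripts weighted by reads, although the panel title names the main transcript. Rises go from 1.47% in the lowest to 46.8% in the highest abundance quintile, and falls go from 6.90% in the shortest to 26.3% in the longest transcript quintile.

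Other features of the transcript that go with length showed the same order. Coding genes with the shortest 3' untranslated regions (up to 197 bases) rose in 547 and fell in 296 of 2427 cases, and those with the longest (from 2250 bases) rose in 323 and fell in 600. Genes without the AU-rich pentamer ATTTA in that region rose in 1152 and fell in 613 of 4811 cases, and those with 6 or more copies rose in 274 and fell in 495 of 2198. Genes of 20 or more exons rose in 138 and fell in 367 of 1424 cases. The richest GC quintile rose in 744 and fell in 329 of 2783 cases, and the poorest rose in 338 and fell in 545. These features overlap with length and with each other, and their separate parts were not tested.

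Chromosomes differed more in the share of rises than in their medians. The share of tested genes that rose ran from 11.2% (chromosome 13) to 24.8% (chromosome 19). Chromosome medians of the log2 fold change ran from -0.07 (chromosome 10) to 0.02 (chromosome 19). The 16 mitochondrial genes had a median of 0.34, but only 2 of them rose. Mitochondrial genes held 7.47% to 9.59% of the TPM with DMSO and 8.76% to 9.89% with MS172, which overlapped (exact permutation p = 0.3, two-sided).

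Known stability did not split the calls simply. Of 81 tested mRNAs on a list of long-lived housekeeping messages 63 rose and 4 fell (median 0.18, against -0.02 over all tested genes). Of 85 on a list of labile, mostly immediate early messages 40 rose and 16 fell (median 0.16). Over all tested genes 17.9% rose and 17.2% fell. With PK9328 against the same DMSO libraries the median of the labile list was also 0.16, and that of the long-lived list was -0.09. Tested directly against PK9328, 29 labile mRNAs were higher and 29 lower with MS172, and 68 long-lived ones were higher and 3 lower. The long-lived list is abundant and fairly short, with medians of 738 CPM and 1710 bases. Of coding genes in the highest abundance quintile, 380 of 531 with the shortest transcripts rose (median 0.18). In the next length quintile 318 of 566 rose (median 0.12). What stability adds to abundance and length was not tested. The long-lived mRNAs rose by little, as ACTB, the main cytoskeletal actin, shows with 13740, 12670 and 13240 CPM in the DMSO libraries and 14120, 15390 and 15190 CPM in the MS172 libraries. GAPDH, a glycolytic enzyme, stood at 7657, 6864 and 7354 CPM with DMSO and at 8712, 9021 and 8719 CPM with MS172 (log2 fold change 0.27 ± 0.04 SE, edgeR adjusted p = 1.1e-05). All MS172 libraries lay above all DMSO libraries for both genes. The 4 long-lived mRNAs that fell were TUBA1A, TUBA1B, TUBA1C and TUBB, all of them tubulins.

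The labile mRNAs moved further and in both directions. ID3, an inhibitor of basic helix-loop-helix factors induced by BMP signals (chromosome 1, 23557918 to 23559794, minus strand), stood at 351, 345 and 355 CPM with DMSO and at 181, 183 and 175 CPM with MS172 (log2 fold change -0.96 ± 0.04 SE, edgeR adjusted p = 1.6e-18). Its relative ID1 stood at 263, 254 and 260 CPM with DMSO and at 132, 137 and 141 CPM with MS172 (-0.92 ± 0.04, edgeR adjusted p = 8.7e-18). In both genes the groups were far apart, and the direct test put MS172 below PK9328 as well, by log2 fold changes of -0.89 and -0.68 (edgeR adjusted p = 6.7e-18 and 8.8e-15). Of 8 tested SMAD genes, whose products carry or inhibit BMP and TGF-beta signals, none rose and 4 fell, with SMAD5 at -0.25 and SMAD3 at -0.19. Over all tested genes 17.2% fell. The SMAD genes had medians of 31.4 CPM and 5751 bases. Among coding genes with the longest transcripts, 221 of 678 fell in the middle abundance quintile (32.6%) and 175 of 709 in the next to highest (24.7%). Whether BMP signals changed was not tested. The SMAD6 call did not hold without DMSO 1, 2 or 3 or without MS172 1 (edgeR adjusted p = 0.0537 to 0.243), nor the SMAD9 call without MS172 2 (0.0812). With length-scaled TPM neither was called (0.14 and 0.153), and with DESeq2 SMAD6 was not (0.109). IER2, an immediate early gene, fell from 541, 520 and 528 to 395, 402 and 399 CPM. TXNIP, which binds thioredoxin and limits glucose uptake, was among the rises, from 76.1, 76.5 and 76.9 to 200, 202 and 201 CPM.

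Tubulins were the abundant genes that fell most uniformly. Alpha and beta tubulin form the dimer of the microtubule, gamma tubulin nucleates it, and cells are known to degrade alpha and beta tubulin mRNAs during translation when free dimers are in excess. All 10 coding alpha and beta tubulin genes with at least 1 CPM fell with MS172, at log2 fold changes of -0.63 to -0.12 with a median of -0.42. Neither of the 2 gamma tubulins was called, and of 5 components of the gamma tubulin complex 1 rose and 1 fell. The 3 alpha and beta tubulins under 1 CPM (TUBA8, TUBAL3 and TUBB8) were not called. Tubulin genes held 0.442% to 0.468% of the TPM with DMSO and 0.295% to 0.309% with MS172, a ratio of 0.671 (exact permutation p = 0.1, two-sided, the smallest possible).

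TUBB, the member with the highest CPM (chromosome 6, 30720201 to 30725426), stood at 2403, 2166 and 2315 CPM with DMSO and at 1753, 1901 and 1827 CPM with MS172. TUBA1B (chromosome 12, 49127782 to 49131397, minus strand) stood at 1253, 1163 and 1221 CPM with DMSO and at 801, 838 and 800 CPM with MS172 (log2 fold change -0.58 ± 0.04 SE, edgeR adjusted p = 5.4e-13). TUBB2A (chromosome 6, 3153669 to 3157526, minus strand) stood at 469, 418 and 468 CPM with DMSO and at 285, 295 and 294 CPM with MS172 (-0.63 ± 0.04, edgeR adjusted p = 1.3e-12). In all 3 genes every MS172 library lay below every DMSO library. TUBG1, a gamma tubulin, stood at 164, 149 and 155 CPM with DMSO and at 158, 155 and 151 CPM with MS172, and its groups overlapped (-0.01, 95% interval -0.10 to 0.07). TUBB3, the neuronal beta tubulin, had the smallest fall, -0.12, and its call did not hold without DMSO 1, DMSO 3 or MS172 1 (edgeR adjusted p = 0.066 to 0.152), with length-scaled TPM (0.306) or with DESeq2 (0.0681). Of the complex components TUBGCP2 rose by 0.15 and TUBGCP6, at 8.17 CPM with DMSO, fell by 0.52, a call lost with length-scaled TPM (edgeR adjusted p = 0.073). With PK9328, which shares the DMSO libraries, all 10 genes also fell, by log2 fold changes of -0.28 to -0.14, and 7 of the 10 were lower with MS172 than with PK9328 in the direct test. Paralogs of one tubulin class are similar in sequence, so the split of reads between them rests on the authors' quantification.

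**Figure D2:**
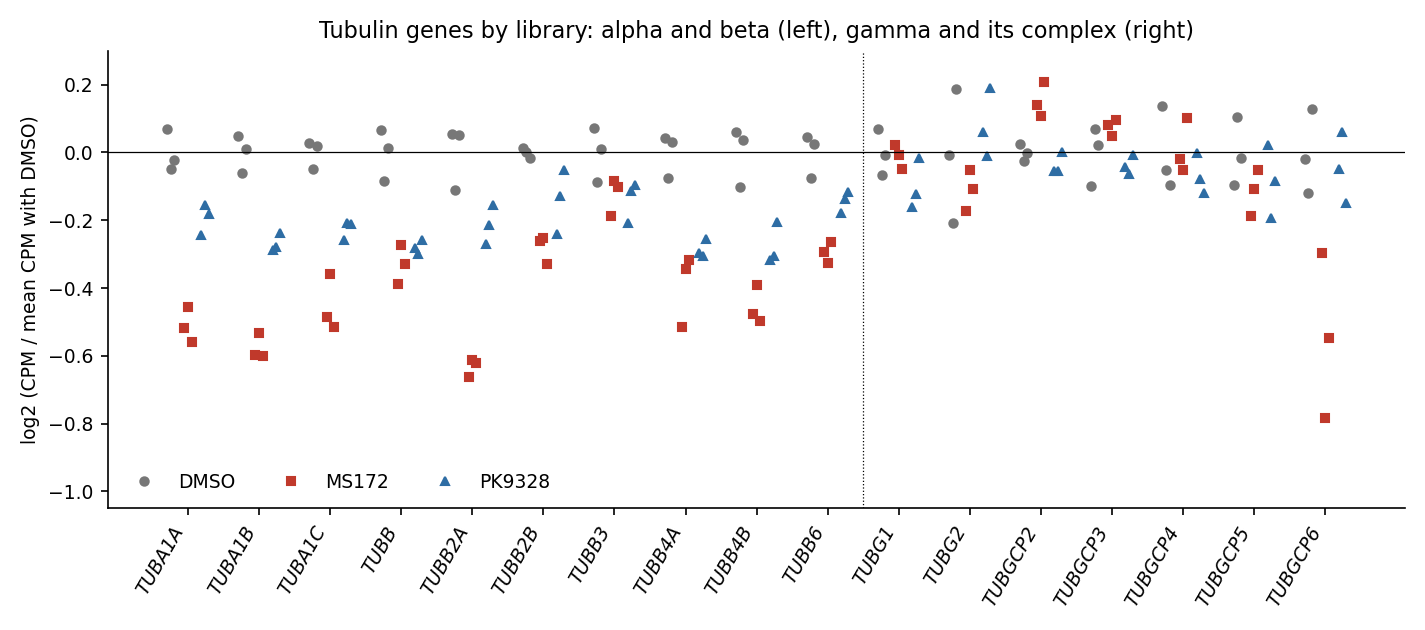
Tubulin genes in each library, as the log2 of CPM over the mean CPM of the DMSO libraries (y axis), with 3 points each for DMSO (grey), MS172 (red) and PK9328 (blue) and the genes on the x axis. The red points of all alpha and beta genes lie below 0, while those of TUBG1 lie among the grey ones.

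Ranked by the change in CPM, 4 of the 8 largest falls were tubulins (TUBB, TUBA1B, TUBA1C and TUBB2A). The others were ID3, IER2, DDIT4, a stress-induced inhibitor of mTORC1, and SLC20A1, a phosphate transporter. DDIT4 fell from 870, 855 and 904 to 703, 708 and 679 CPM, and the MS172 and PK9328 libraries differed by -0.75 in log2 (edgeR adjusted p = 5e-16). The 8 largest rises in CPM were MT-RNR2, ACTB, GAPDH, MT2A, TMSB4X, ACTG1, MT1E and FTL. MT2A, a metallothionein that binds zinc, rose from 988, 891 and 964 to 2484, 2350 and 2236 CPM, and FTL, the ferritin light chain, rose from 3191, 3007 and 2989 to 3927, 3827 and 3676 CPM. MT-RNR2, the large mitochondrial ribosomal RNA, rose by 0.44 (edgeR adjusted p = 0.035). Its call did not hold without DMSO 1, DMSO 2 or any 1 MS172 library (edgeR adjusted p = 0.0741 to 0.115). The ACTG1 call did not hold with length-scaled TPM (0.11, edgeR adjusted p = 0.143). Metallothioneins share sequence, and their single values are uncertain for that reason.

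Many genes of housekeeping complexes rose by small amounts, as did short, abundant coding genes in general. Among coding genes with the shortest transcripts, 380 of 531 rose in the highest abundance quintile (71.6%). In the next to highest 188 of 363 rose (51.8%). Ribosomal protein, complex I and proteasome genes had median levels of 939, 74.98 and 126 CPM. Their median lengths were 763, 907 and 1426 bases, and 51.9% of ribosomal protein and 52.9% of complex I genes rose. What membership adds to abundance and length was not tested. Of 81 cytosolic ribosomal protein genes 42 rose and 1 fell (median 0.14, and 0.05 with the GC and length offset), of 51 subunits and assembly factors of complex I of the respiratory chain 27 rose and 2 fell (0.16), and of 50 proteasome genes 25 rose and 2 fell (0.11). Of 33 ubiquitin-conjugating enzymes 16 rose and 1 fell, and of 22 glycolysis genes 15 rose and 1, PFKM, fell. Without DMSO 2 only 17 complex I and 14 proteasome genes rose, with length-scaled TPM 10 ubiquitin-conjugating enzymes rose, and PFKM was not called without DMSO 3 or MS172 1 (edgeR adjusted p = 0.0506 and 0.0528). RPL24, a protein of the large ribosomal subunit, stood at 678, 630 and 653 CPM with DMSO and at 881, 832 and 766 CPM with MS172 (0.34 ± 0.04 SE, edgeR adjusted p = 1.1e-06). NDUFA2, a complex I subunit, stood at 49.6, 50.1 and 54.5 CPM with DMSO and at 69.1, 68.2 and 62.9 CPM with MS172. The groups did not overlap for either gene, but MS172 3 was the lowest of its group in both. Over the whole family the median deviation from each gene's mean was -0.02 in MS172 3 and -0.01 in DMSO 3, and the share of TPM held by ribosomal protein genes overlapped, at 23.7% to 23.9% with DMSO and 22.9% to 24.1% with MS172 (exact permutation p = 1.0, two-sided). UBE2C, a ubiquitin-conjugating enzyme of mitotic exit, rose from 85.0, 81.8 and 87.8 to 118.9, 121.8 and 114 CPM. HK2, the inducible hexokinase, rose from 37.5, 41.3 and 39.3 to 60.9, 56.5 and 62.0 CPM.

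Zinc finger genes formed the largest family that fell. ZNF genes mostly encode C2H2 zinc finger proteins, many of which carry a KRAB domain and repress transposable elements or genes. Of 444 tested ZNF genes 220 fell (49.5%) and 16 rose, with a median of -0.32, and of 23 ZSCAN and ZKSCAN genes 16 fell and none rose (median -0.47). The share that fell was also larger for ZNF genes within each quintile of abundance and within each quintile of length. Bins of abundance and length together were not examined. The highest abundance quintile held only 7 ZNF genes, of which 3 rose and 3 fell (median 0.08, against 0.10 for other coding genes). In the next to lowest abundance quintile 136 of 230 ZNF genes fell (59.1%), against 493 of 2145 other coding genes (22.98%). Among genes of the longest transcript quintile 70 of 103 ZNF genes fell, against 649 of 2599 others. ZNF genes held 0.281% to 0.304% of the TPM with DMSO and 0.229% to 0.238% with MS172, a ratio of 0.806 (exact permutation p = 0.1, two-sided, the smallest possible).

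ZNF391 (chromosome 6, 27374615 to 27403904) stood at 9.53, 11.6 and 11.1 CPM with DMSO and at 4.41, 3.42 and 4.55 CPM with MS172 (log2 fold change -1.38 ± 0.12 SE, edgeR adjusted p = 1.6e-10). ZNF589 (chromosome 3, 48241100 to 48299253) stood at 8.76, 8.85 and 9.46 CPM with DMSO and at 3.999, 3.906 and 3.837 CPM with MS172 (-1.20 ± 0.11, edgeR adjusted p = 9.8e-10). ZKSCAN5, a KRAB and SCAN domain protein, stood at 33.8, 32.9 and 33.6 CPM with DMSO and at 24.4, 22.8 and 23.5 CPM with MS172. In each of these genes the groups were apart. ZNF473, which acts in the processing of histone mRNA, and ZNF621 fell by 0.80 and 0.90 on the log2 scale. With PK9328 the ZNF median was 0.11, and directly against PK9328 274 of the 444 ZNF genes were lower with MS172 and 15 higher.

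NBPF genes, a primate family of tandem repeats on chromosome 1, fell in 12 of 13 cases (median -0.67). NBPF1 (16562319 to 16613562, minus strand) stood at 47.1, 56.6 and 49.5 CPM with DMSO and at 24.7, 20.6 and 22.1 CPM with MS172 (-1.19 ± 0.07 SE, edgeR adjusted p = 1.2e-11). NBPF12 stood at 4.65, 7.74 and 6.32 CPM with DMSO and at 1.88, 2.35 and 2.38 CPM with MS172, and in both the groups were apart. NBPF20 was the member without a call (edgeR adjusted p = 0.184, and 0.0308 without DMSO 1). The copies are nearly identical, so how reads were split among them is uncertain, and 12 of the 13 were also lower with MS172 than with PK9328. FAM13B, a gene with a RhoGAP domain, was the remaining member of the 5 largest coding falls and went from 10.0, 10.8 and 8.72 to 4.49, 4.22 and 3.80 CPM.

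**Figure D3:**
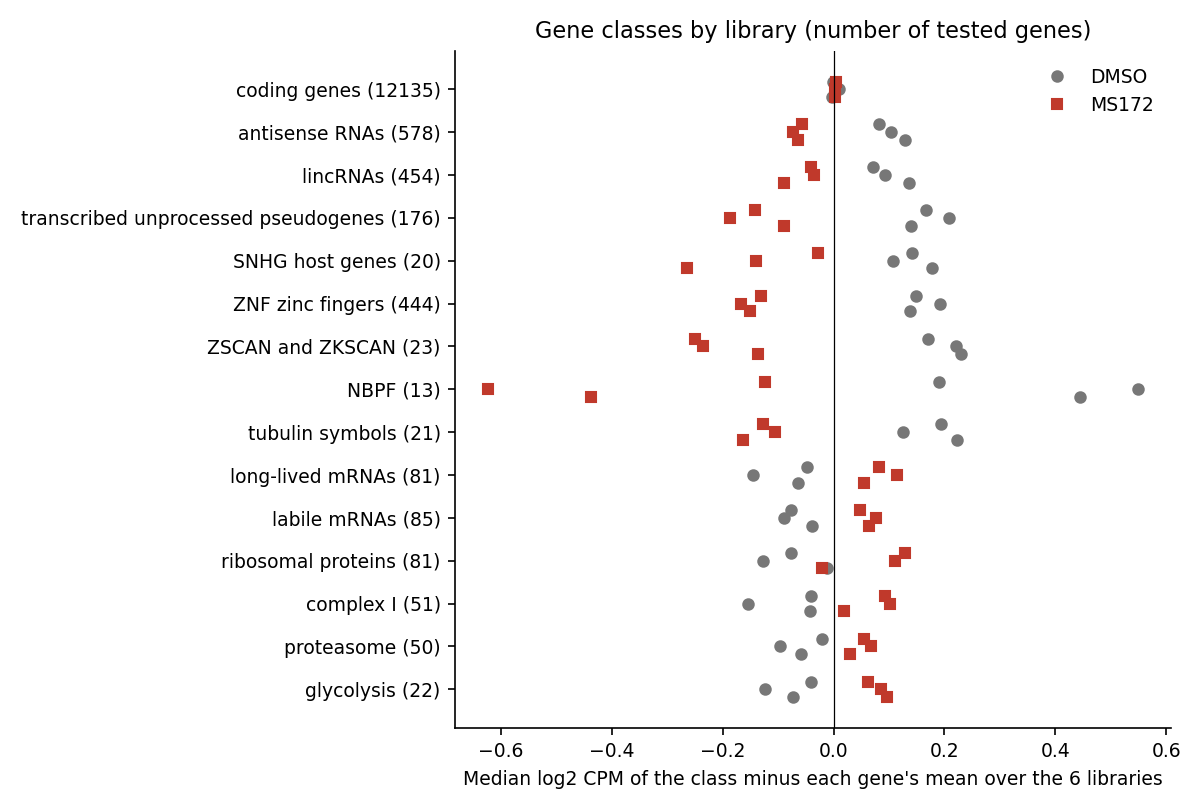
Median over the genes of a class (y axis, with the number tested) of log2 CPM minus each gene's mean over the 6 libraries (x axis), for each DMSO (grey circles) and MS172 (red squares) library. Noncoding, zinc finger, NBPF and tubulin classes lie lower with MS172 in all 3 libraries, stable and metabolic classes lie higher, and ribosomal protein genes come close together in MS172 3 and DMSO 3.

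Genes that are not coding fell more often than they rose. Of 1779 tested 74 rose and 273 fell (15.3%, median -0.16), against 2412 and 2125 of 12135 coding genes (17.5% fell, median -0.01). At like abundance the contrast was smaller: in the lowest quintile 128 of 1261 noncoding genes fell (median -0.19) against 124 of 1449 coding genes outside the ZNF family (-0.16), and in the next 122 of 412 (-0.18) against 493 of 2145 (-0.11). Antisense RNAs rose in 16 and fell in 77 of 578 cases, and lincRNAs (long intergenic noncoding RNAs) rose in 18 and fell in 79 of 454. Transcribed unprocessed pseudogenes, gene copies made by duplication, rose in 3 and fell in 46 of 176 cases (median -0.32), whereas processed pseudogenes, which arise from reverse-transcribed mRNA, rose in 11 and fell in 8 of 120. Antisense genes held 0.265% to 0.272% of the TPM with DMSO and 0.224% to 0.227% with MS172 (exact permutation p = 0.1, two-sided, the smallest possible). The lincRNA share overlapped, at 0.525% to 0.648% and 0.558% to 0.693%. Reads of an antisense gene and its partner cannot be told apart where the counting did not use strand, which is not given in the sources used here.

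MALAT1, an abundant nuclear RNA of splicing speckles (chromosome 11, 65497688 to 65506516), was among the 18 lincRNAs that rose. It stood at 109, 126 and 125 CPM with DMSO and at 249, 272 and 297 CPM with MS172 (log2 fold change 1.19 ± 0.14 SE, edgeR adjusted p = 0.00077). With PK9328 it stood at 68.8 CPM on average, and the direct difference was 1.99 (edgeR adjusted p = 4e-05). CEBPB-AS1, antisense to the transcription factor gene CEBPB, rose from 0.659, 0.555 and 0.408 to 3.02, 2.40 and 2.21 CPM. THAP9-AS1 showed the opposite, with 10.7, 12.4 and 13.2 CPM with DMSO and 4.65, 4.62 and 3.84 CPM with MS172 (-1.47 ± 0.11, edgeR adjusted p = 8.6e-12). SMG1P1, a duplicated copy of the decay kinase gene SMG1, fell from 3.49, 2.57 and 3.02 to 0.735, 0.577 and 1.25 CPM, and SMG1 itself fell by 0.48. Reads of SMG1 and its copies are similar, so these 2 values may share reads.

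Host genes of small nucleolar RNAs are spliced noncoding or coding genes that carry the snoRNAs in introns, and the spliced RNA of many noncoding hosts is degraded by nonsense-mediated decay. Of 20 tested SNHG genes 1 rose and 8 fell, and of 37 noncoding hosts 2 rose and 10 fell (27.0%). The noncoding hosts had a median of 5.45 CPM. Of all noncoding genes in the next to lowest abundance quintile a like share fell (122 of 412, 29.6%). The 204 coding hosts rose in 48 (23.5%) and fell in 26 cases (12.75%, and 17 cases without DMSO 2 or MS172 1). Of all coding genes 19.9% rose and 17.5% fell. What hosting a snoRNA adds to abundance and biotype was not tested. SNHG15 (chromosome 7, 44983023 to 44986961, minus strand) stood at 12.8, 14.1 and 14.9 CPM with DMSO and at 6.37, 6.26 and 4.84 CPM with MS172 (-1.26 ± 0.10 SE, edgeR adjusted p = 5.3e-11). SNHG17 (chromosome 20, 38420588 to 38435353, minus strand) stood at 16.35, 17.97 and 18.67 CPM with DMSO and at 9.06, 6.92 and 7.26 CPM with MS172 (-1.19 ± 0.09, edgeR adjusted p = 7.8e-11). SNHG16 was the one SNHG gene that rose, from 162, 158 and 160 to 191, 198 and 199 CPM. With PK9328 SNHG15 and SNHG17 had log2 fold changes of 0.53 and 0.66 against the same DMSO libraries, and the direct differences were -1.79 and -1.85 (edgeR adjusted p = 3.3e-15 and 8.2e-16).

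**Figure D4:**
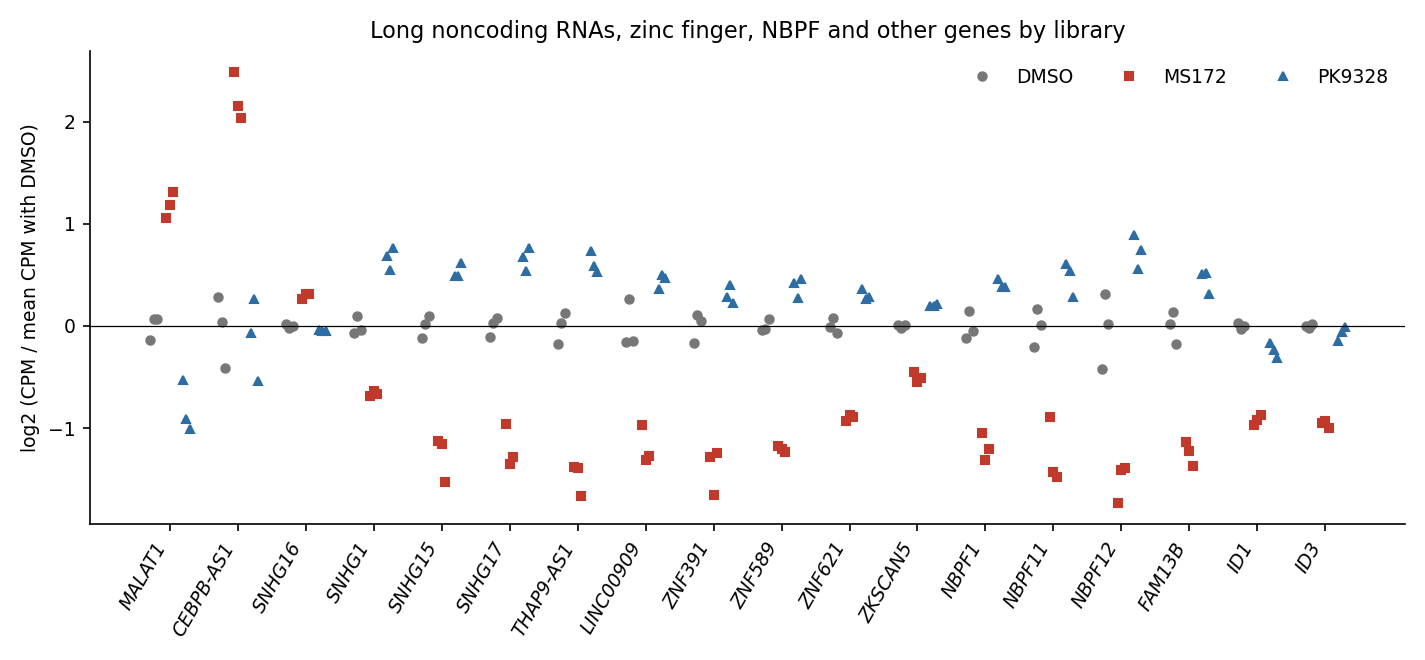
Single genes in each library, as the log2 of CPM over the mean CPM of the DMSO libraries (y axis), with 3 points each for DMSO (grey), MS172 (red) and PK9328 (blue) and the genes on the x axis. MALAT1, CEBPB-AS1 and SNHG16 lie above 0 with MS172 and the other genes shown lie below it in all 3 MS172 libraries.

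Lists of regulators of RNA and chromatin moved in parts, where 17.9% of all tested genes rose and 17.2% fell. Of 18 nonsense-mediated decay factors 7 fell and 2 rose, with SMG9, a subunit of the SMG1 kinase complex, falling from 28.8, 27.9 and 29.9 to 18.9, 20.7 and 16.4 CPM, while MAGOH of the exon junction complex rose by 0.28. Of 51 core spliceosome genes 18 rose and 5 fell (3 without DMSO 2 or MS172 2). PRPF38B rose from 110, 108 and 109 to 139, 160 and 158 CPM, and the members that fell, DHX38, DHX8, DHX15, SNRNP200 and SF3B1, are helicases, except SF3B1, a subunit of the U2 particle. Of 36 genes of RNA polymerase II pausing and elongation 12 rose and 8 fell (7 and 5 with length-scaled TPM), with CCNT2, a cyclin of P-TEFb, falling from 19.4, 21.4 and 22.2 to 10.7, 12.2 and 13.5 CPM and SUPT5H, a subunit of the pausing factor DSIF, rising by 0.27. Of 30 Polycomb genes 8 rose and 2 fell, and the methyltransferase EZH1 was one that fell, from 29.4, 27.4 and 28.9 to 15.9, 16.6 and 15.4 CPM. Of 24 SWI/SNF genes 2 rose and 7 fell, with ARID1A at -0.53.

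Several small lists fell more than they rose, where 17.2% of all tested genes fell. Of coding genes of the middle abundance quintile, 182 of 600 fell in the next to longest transcript quintile (30.3%). In the longest transcript quintile 221 of 678 fell (32.6%). The shares of homologous recombination and primary cilium genes that fell, 35.0% and 33.3%, were near these. Of 20 homologous recombination genes 7 fell. RAD52, which anneals DNA strands in repair, fell from 3.29, 4.86 and 4.04 to 1.84, 1.24 and 1.33 CPM, and XRCC2, which acts in the same repair, from 8.37, 10.6 and 7.91 to 4.37, 3.91 and 5.00 CPM. Of 20 hedgehog and Notch genes 9 fell (5 with length-scaled TPM) and 2 rose. The Notch targets NRARP and HES1 fell by 0.60 and 0.49, whereas the receptor NOTCH3 rose by 0.34. Of 27 primary cilium genes 9 fell (2 with length-scaled TPM) and none rose, with KIF3B, a motor of intraflagellar transport, at -0.23. Direct tests against PK9328 differed between these genes, with -2.19 for RAD52 (edgeR adjusted p = 2.1e-11) and -0.04 for HES1 (edgeR adjusted p = 0.541).

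At the level of transcripts, 39248 were tested and by edgeR 1225 rose (3.12%) and 764 fell (1.95%), of which 40 and 91 were listed at 0 in all 3 libraries of a group. An exact 0 in such tables can be an assignment to another isoform of the same gene, so it is given as listed at 0 and no fold is drawn from it. Isoforms annotated as targets of nonsense-mediated decay rose in 20 and fell in 48 of 2938 cases (median -0.12), and with PK9328 their median was 0.17. Retained intron isoforms rose in 33 and fell in 25 of 2821 cases, and processed transcripts of coding genes, which have no open reading frame annotated, rose in 25 and fell in 37 of 2703. Retained intron isoforms held 2.82%, 2.74% and 2.77% of the TPM with DMSO and 2.61%, 2.54% and 2.55% with MS172, which did not overlap (exact permutation p = 0.1, two-sided, the smallest possible). As a share of estimated reads they overlapped, at 1.47% to 1.56% and 1.48% to 1.53% (p = 0.8 by the same exact test).

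Single unproductive isoforms moved with or against their gene. FASN-205, a retained intron isoform of fatty acid synthase, stood at 26.6, 25.7 and 32.3 CPM with DMSO and at 66.6, 80.1 and 76.7 CPM with MS172, where the whole gene changed by 0.65 in log2. PPIA-202, a decay-target isoform of cyclophilin A, stood at 171, 126 and 176 CPM with DMSO and at 428, 404 and 339 CPM with MS172, where the gene changed by 0.33. SRSF6-202, the decay-target isoform of a splicing factor that regulates its own mRNA in this way, stood at 22.03, 24.33 and 23.96 CPM with DMSO and at 14.7, 14.7 and 14.3 CPM with MS172, where the gene fell by 0.45. In all 3 the groups were apart. TCP1-214, a processed transcript of a chaperonin subunit, fell from 14.96, 16.83 and 13.38 to 2.86, 4.11 and 3.88 CPM, while its gene had a log2 fold change of 0.11 that turned to -0.13 with length-scaled TPM.

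Isoform use was tested for 9223 genes with 2 or more isoforms past the filter, and edgeR called 644 of them (6.98%) while limma's diffSplice called 620. On simulated data the edgeR test called more unchanged genes than its threshold allows and limma's test did not. The simulation gave all isoforms a constant spread, smaller than that of these data, and left out the uncertainty of assigning reads. How well either test is calibrated here is therefore not known. The 345 genes called by both are described. In all 345 at least 1 isoform gained and 1 lost share. The gaining and the losing isoform with the largest changes had starts over 100 bases apart in 225 genes and ends over 100 bases apart in 194, and neither in 38. The gaining isoform was the shorter in 184 genes and the longer in 161. Both were protein coding in 238, and a coding isoform gained from another biotype in 46 and lost to one in 50. Of the 345 genes 122 also rose and 57 fell as a whole, and 166 were not called as a gene. A share changed by 10 percentage points or more in 166 of the 345, and 53 kept their call under every alternative and without each library.

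SUPT5H showed 1 of the largest exchanges. The isoform SUPT5H-204 held 73.1%, 61.4% and 71.7% of the gene's reads with DMSO and 27.4%, 26.6% and 32.8% with MS172, while SUPT5H-213 went from 16.7%, 28.1% and 16.8% to 52.5%, 54.7% and 45.9% (edgeR adjusted p = 6.3e-10, and at most 1.8e-05 with a library left out). Their annotated starts lie 138 bases apart and their ends 4. FBXW11, an F-box protein that directs ubiquitination, was not called as a gene (log2 fold change 0.05, edgeR adjusted p = 0.44), but its isoform FBXW11-201 went from 49.9%, 52.7% and 55.3% to 80.7%, 84.7% and 81.7%. ERMP1, a peptidase of the endoplasmic reticulum, was not called as a gene either, and its isoform ERMP1-201 without an open reading frame went from 8.15%, 7.71% and 10.9% to 37.1%, 43.0% and 40.9%. In these genes the groups lie 10 percentage points or more apart.

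In SLC39A10, a zinc importer that fell as a gene by 0.79, an isoform that is a decay target gained share. SLC39A10-205 held 26.0%, 23.9% and 33.3% of the gene's reads with DMSO and 58.2%, 56.8% and 54.7% with MS172. Its own level was not called as changed (log2 fold change 0.24, edgeR adjusted p = 0.569). The coding isoform SLC39A10-201 fell (-1.54, edgeR adjusted p = 0.00036). BBC3, which encodes the pro-apoptotic protein PUMA, used BBC3-202 for 23.8%, 13.8% and 32.3% of its reads with DMSO and for 75.5%, 59.4% and 54.0% with MS172, an isoform whose start lies 1572 bases from that of BBC3-203. GSN, the actin-severing protein gelsolin, moved from GSN-204 (76.4%, 78.7% and 66.3% with DMSO, and 44.8%, 43.1% and 52.8% with MS172) to GSN-203. The starts of these GSN isoforms lie 31733 bases apart. UVRAG-207, of an autophagy gene, went from 7.83%, 2.05% and 17.3% to 38.7%, 40.7% and 26.1%, and RHBDD1-202, of a rhomboid protease gene, from 2.80% and 1.62% and a value listed at 0 to 30.1%, 20.7% and 22.5%.

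In the glycolytic gene HK2, the isoform HK2-202 went from 17.9%, 18.3% and 31.4% to 54.2%, 53.0% and 52.3% of the reads of HK2, with a start 1189 bases from that of HK2-201. This call did not hold with the Simes combination (edgeR adjusted p = 0.0739). NFE2L2, which encodes the antioxidant regulator NRF2, was not called as a gene (edgeR adjusted p = 0.0835, but 0.0159 without DMSO 2), and NFE2L2-202 went from 32.1%, 30.4% and 26.2% to 55.5%, 57.0% and 57.9%. The starts of its 2 main isoforms lie 1331 bases apart. The NFE2L2 call was lost with the Simes combination (edgeR adjusted p = 0.107), with a replicate block (0.0736) and without 3 of the 6 libraries, as was the call of EIF2AK3 (PERK) without 4, so those rest on fewer libraries than the others. Other large exchanges by edgeR alone, such as NAPB, HDAC4 and BMF, where 1 isoform is listed at 0 in a whole group, were not called by limma (adjusted p = 0.516, 0.353 and 0.495).

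**Figure D5:**
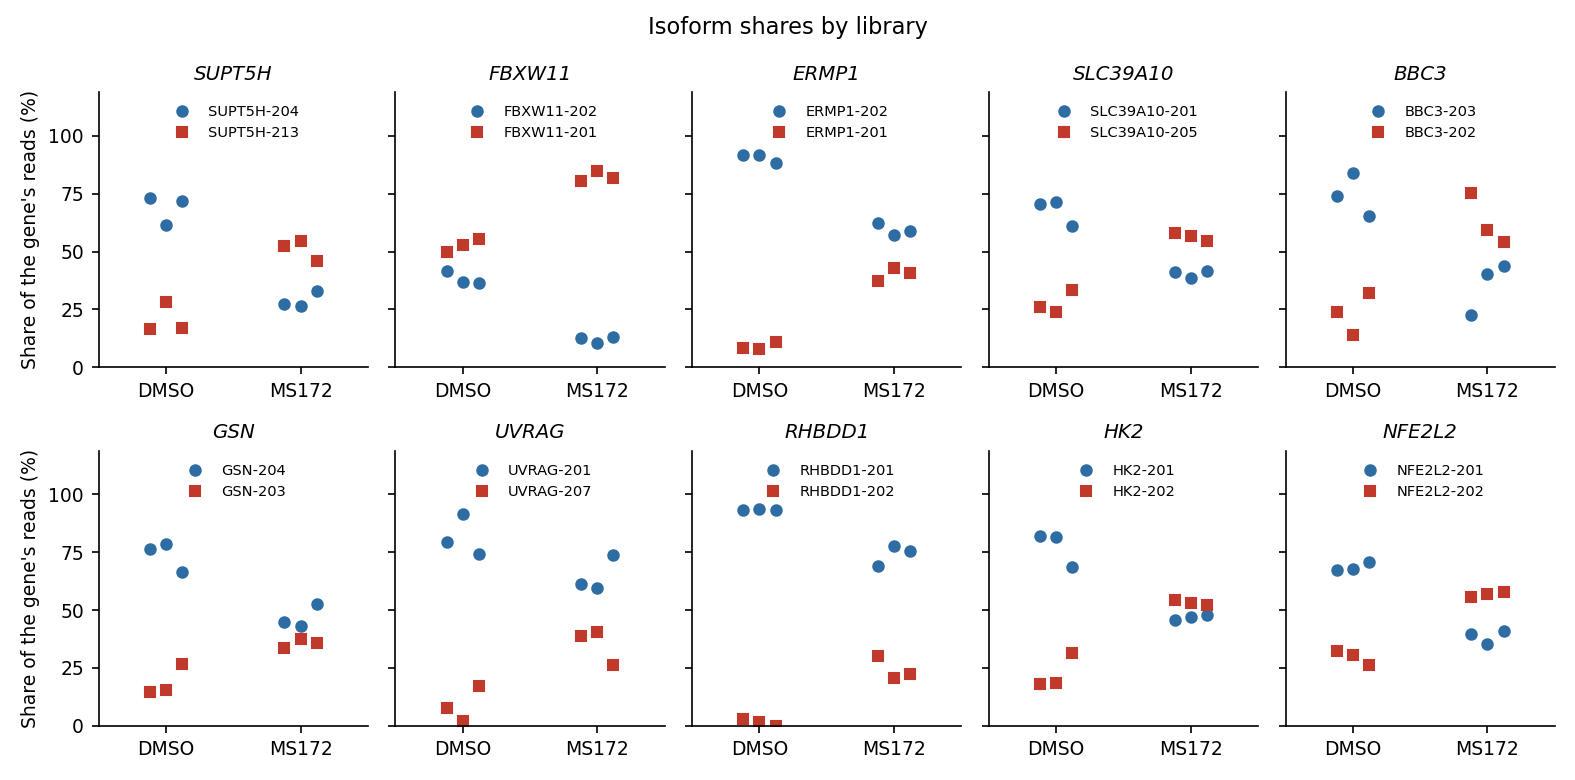
Share of a gene's estimated reads (percent, y axis) held by the isoform that lost most (blue circles) and the isoform that gained most (red squares) in each DMSO and MS172 library (x axis), for 10 genes called by edgeR and limma. In SUPT5H the red squares rise from 16.7% to 28.1% with DMSO to 45.9% to 54.7% with MS172, and in UVRAG the lowest blue DMSO circle (74.1%) and the highest MS172 circle (74.0%) nearly touch.

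Promoter sequences from RefSeq (GRCh38.p14, 250 bases before to 50 after the start) were matched by symbol to 7103 of the 13914 tested genes, and 13 motifs were counted on both strands. The heat shock element, written GAANNTTC followed by NNGAA, was in 0.488% of all 22114 promoters and in 0.324% of those of the matched tested genes, with 0.662% among genes that rose (9 genes) and 0.233% among genes that fell (3 genes). The AP-1 site TGANTCA was in 8.05% of all promoters and 3.998% of matched ones, with 5.52% among rises and 3.10% among falls. The cyclic AMP element TGACGTCA was in 2.01% of all and 3.69% of matched promoters, with 4.42% and 3.18%. The start of the C/EBP and ATF element, TGATGCAA, was in 0.990% of all and 0.352% of matched promoters, with 0.515% and 0.155%. The ETS core CCGGAAG was in 10.7% of all and 22.09% of matched promoters, with 22.08% among rises and 25.4% among falls, so its share among rises was that of the matched genes. These are descriptions of the windows and no test was made of them. For each of these 5 motifs the matched gene with the smallest p that carries it is shown, from 250 bases before to 20 after the start, with the motif in capitals, so that the element can be seen beside a gene that moved.
DNAJA1: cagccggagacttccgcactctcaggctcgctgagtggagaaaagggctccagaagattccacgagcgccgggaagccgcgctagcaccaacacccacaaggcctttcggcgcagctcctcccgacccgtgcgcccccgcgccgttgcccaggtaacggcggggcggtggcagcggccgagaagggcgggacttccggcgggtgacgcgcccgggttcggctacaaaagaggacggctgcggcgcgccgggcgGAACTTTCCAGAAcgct
CXCL8: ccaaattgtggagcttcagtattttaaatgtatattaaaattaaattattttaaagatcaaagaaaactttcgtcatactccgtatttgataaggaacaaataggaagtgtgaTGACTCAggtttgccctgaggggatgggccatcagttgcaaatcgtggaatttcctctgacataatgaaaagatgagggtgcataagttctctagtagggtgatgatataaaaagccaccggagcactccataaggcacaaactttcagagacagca
CHAC1: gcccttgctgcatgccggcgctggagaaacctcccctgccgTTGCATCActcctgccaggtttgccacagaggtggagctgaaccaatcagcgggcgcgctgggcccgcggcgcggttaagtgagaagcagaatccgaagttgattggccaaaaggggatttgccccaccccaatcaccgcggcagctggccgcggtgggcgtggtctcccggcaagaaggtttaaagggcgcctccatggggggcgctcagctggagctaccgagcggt
TUBB2A: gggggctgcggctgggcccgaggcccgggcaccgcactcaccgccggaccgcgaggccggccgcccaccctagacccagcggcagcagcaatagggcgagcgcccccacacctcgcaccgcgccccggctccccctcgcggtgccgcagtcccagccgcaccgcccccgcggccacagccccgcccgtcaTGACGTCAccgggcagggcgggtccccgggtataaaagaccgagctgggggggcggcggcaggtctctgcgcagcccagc
IER2: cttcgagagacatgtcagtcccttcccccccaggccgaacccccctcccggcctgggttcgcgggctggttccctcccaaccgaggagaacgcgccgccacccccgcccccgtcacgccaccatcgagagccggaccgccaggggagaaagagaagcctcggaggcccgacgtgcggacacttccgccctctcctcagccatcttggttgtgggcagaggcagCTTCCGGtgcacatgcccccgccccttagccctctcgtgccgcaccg
DNAJA1, a cochaperone of HSP70 (chr9:33025023-33025292, plus strand), carries the element 3 bases after its start and rose from 164, 166 and 169 to 216, 217 and 216 CPM. CXCL8, a chemokine (chr4:73740319-73740588, plus strand), carries an AP-1 site that begins 137 bases before its start, and the gene rose from 75.4, 73.0 and 72.8 to 301, 291 and 286 CPM. CHAC1, which degrades glutathione (chr15:40953221-40953490, plus strand), carries TGATGCAA on the other strand, 209 bases before its start, and fell from 49.99, 50.58 and 51.8 to 33.7, 34.6 and 30.5 CPM. TUBB2A (chr6:3157525-3157794, minus strand) carries TGACGTCA 60 bases before its start, and IER2 (chr19:13150161-13150430, plus strand) carries the ETS core on the other strand 27 bases before its start, with the values given above for both genes. The groups did not overlap in any of the 5 genes, which their choice by the smallest p made likely. Over all tested genes they did not overlap for 44.7%.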

How the data were processed

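Per the file headers, each deposited table gives transcript length, effective length, TPM and an estimated count of reads per transcript, and the TPM was scaled by the authors per library. FastQC 0.11.8 and hg38 come from the submitters' processing notes, and which quantifier was used is not given in the sources used here. Of the transcripts, most had an identifier in GENCODE 29 (193348 of 197653), and the unmatched held 0.356% to 0.382% of a library's reads. Estimated counts were summed over 56865 genes and rounded, and coordinates are those of GENCODE 29 (GRCh38), counted from 1. All 9 libraries entered 1 fit by edgeR 4.0.16 (R 4.3.3) with robust quasi-likelihood tests, TMM, filterByExpr and no replicate term, leaving 6 residual degrees of freedom. Isoform use was tested with edgeR's diffSpliceDGE and limma 3.58.1, and the steps were tested on simulated data. As alternatives, DESeq2 1.42.0, limma-voom, RLE size factors, other filters, a replicate block, 6 libraries alone, length-scaled TPM, an offset for GC content and length (mgcv 1.9.3) and each library left out were tried. Genes called by both isoform tests were added after seeing the data. The comparison, classes, lists and alternatives were chosen with earlier results of these data known. Named genes are the 5 largest called rises and falls per biotype (at least 5 CPM if coding, otherwise 1), the 8 largest changes in CPM, up to 4 members per list by p, isoforms by share change, and the top gene per motif. The choices per biotype and by share change took only members whose MS172 and DMSO libraries did not overlap. For genes named by these rules, the lack of overlap was thus fixed in advance. For genes and transcripts chosen by p or by change in CPM, the choice made it likely. TUBGCP2, TUBG1, NBPF20, the tubulins under 1 CPM, PFKM, the spliceosome helicases and the isoform genes SLC39A10, ERMP1, FBXW11, GSN, UVRAG, RHBDD1, HK2 and NFE2L2 were named after their values were seen. CPM is not scaled to length, so the abundance quintiles sort genes by reads and not by molecules. A single gene is not reported here.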

Additional observations from a re-analysis of the deposited data

How the results depend on the processing

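Gene counts of 2486 higher and 2398 lower stayed within 1.5 times under the alternatives tried, except for the falls with length-scaled TPM. With that setting 1805 rose, within the limit, and 1545 fell, beyond it. RLE size factors gave 2701 and 2245, DESeq2 2366 and 1630, and leaving out a library 2043 to 2347 and 1831 to 2153 (3874 to 4453 in all). Transcript calls were less stable than gene calls: 1989 in the main fit, 1200 (786 higher, 414 lower) with the 6 libraries alone, 5407 (2903 and 2504) with DESeq2, and 970 to 1329 (565 to 820 higher, 345 to 579 lower) without 1 library, the fewest without DMSO replicate 2. Isoform use fell from 644 genes to 299 with the Simes combination, to 345 called by edgeR and limma, and to 398 to 607 without 1 library, the fewest without DMSO replicate 2. As a share of estimated reads, the MS172 to DMSO ratio was 0.994 for retained introns (0.926 by TPM), 0.979 for processed transcripts (0.914) and 0.998 for protein coding isoforms (1.003), and for transcribed unprocessed pseudogenes it turned to 0.865 from 1.026. The median of genes with 1 to 2 ATTTA copies, -0.007 in the main fit, was 0.00466 with RLE, 0.00268 with length-scaled TPM and 0.00374 with the offset. The log2 fold change of TCP1, 0.11, turned to -0.125 with length-scaled TPM. The cause of these moves was not tested.

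Replicate numbers did not pair the libraries: correlations of same-numbered deviations were -0.0569 to 0.0174. With the number as a replicate block 2337 genes rose and 2260 fell, 803 transcripts were called (516 higher, 287 lower), and 420 genes changed isoform use.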
